A study of Mus musculus with 6 samples.

Results

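The genes described here make the machinery that copies DNA and the enzymes that supply its building blocks: origin recognition and licensing factors, the MCM helicase and its activators, primase and the replicative polymerases, the sliding clamp and its loader, single-strand binding and ligation proteins, deoxynucleotide enzymes, and a few genes of S phase entry. They are 45 genes named as a set, and every probe of theirs was taken from the table of unnormalised signals. Of these, 43 genes had 78 probes among the 46632 probes of the array, which carry 17711 gene symbols. No probe was named here for Mcm3 or Gins1, a helicase subunit and a helicase activator, so neither was analysed. The 43 genes were compared between 3 arrays of SclRER/RER progenitors, which express an SCL protein mutated in DNA binding, and 3 arrays of wild-type (WT) progenitors.

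Both genotypes carried the strain label C57Bl/6. Cells came from fetal livers of E12.5 embryos, were grown for 3 days and were then purified as Ter119-negative erythroid progenitors, Ter119 being a surface marker of maturing red cells. Whether the 3 samples of a genotype were different embryos or cultures is not stated, and the p-values speak only for the scatter among these arrays, part of which may be technical. SCL, the product of Tal1, is a transcription factor needed for blood formation, and the comparison asks which genes depend on its binding to DNA.

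Replication starts where the origin recognition complex sits on DNA and, with Cdc6 and Cdt1, loads the ring-shaped MCM helicase in G1. In S phase Cdc45, the GINS proteins and Mcm10 help turn the helicase on, primase and polymerases copy the strands, the clamp Pcna holds polymerases in place, and ribonucleotide reductase makes deoxynucleotides. Erythroid progenitors divide quickly while they mature, and many genes of this machinery are known targets of E2F transcription factors at the entry to S phase.

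The labelled cell type was checked against marker genes. All 6 erythroid progenitor genes that had a probe (Gata1, Klf1, Epor, Tfrc, Tal1 and Kit) passed the detection filter described below. It was passed by 0 of 3 macrophage genes, 0 of 5 endothelial and stromal genes and 1 of 5 hepatocyte genes, with Alb, Afp, Trf and Ttr detected on no array. The filter was also passed by 3 of 4 neutrophil genes, 2 of 5 mast cell genes, 1 of 4 megakaryocyte genes and 2 of 3 maturing red cell genes. The Tal1 difference, 0.08 (log2, adjusted p = 0.77), is no check of the genotype, since the mutation alters the protein. Between 11084 and 12678 probes were detected per array at mean signals of 385 to 546 intensity units. Arrays of SclRER/RER correlated with each other at Pearson r of 0.975 to 0.984 and arrays of WT at 0.989 to 0.993. The number of arrays limits the precision of every value below.

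Among the replication genes, Rrm1 alone passed the test, and it was lower in SclRER/RER. Of the 78 probes, 60 probes of 39 genes passed the detection filter: 3 or more arrays had to show a detection p under 0.01. Among these 60, 2 probes fell in SclRER/RER, both of Rrm1, none rose and 58 did not pass the limma test at an adjusted p of 0.05. Of all 11578 kept probes 6.58% passed, 3.26% lower and 3.33% higher, against 3.33% of the 60. At an unadjusted p below 0.05, which 19.6% of all kept probes reached, 7 of the 60 were lower (9.8% of all) and 0 were higher (9.79%). They were the probes of Orc6 and Mcm2, both of Mcm6, 1 of Rfc4 and both of Rrm1. The 95% interval of the difference lay within a 2-fold change either way for 58 of the 60 probes, as for 90.9% of all kept probes. The exceptions were the dimmer Rrm1 probe and a probe of Mcm6, the only 1 of the 60 to differ by at least 2-fold (3.09% of all kept probes). The count of 2 was 5 without SclRER/RER array 3, 1 without SclRER/RER array 2 or WT array 1, and 0 without WT array 2 or WT array 3.

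**Figure D1:**
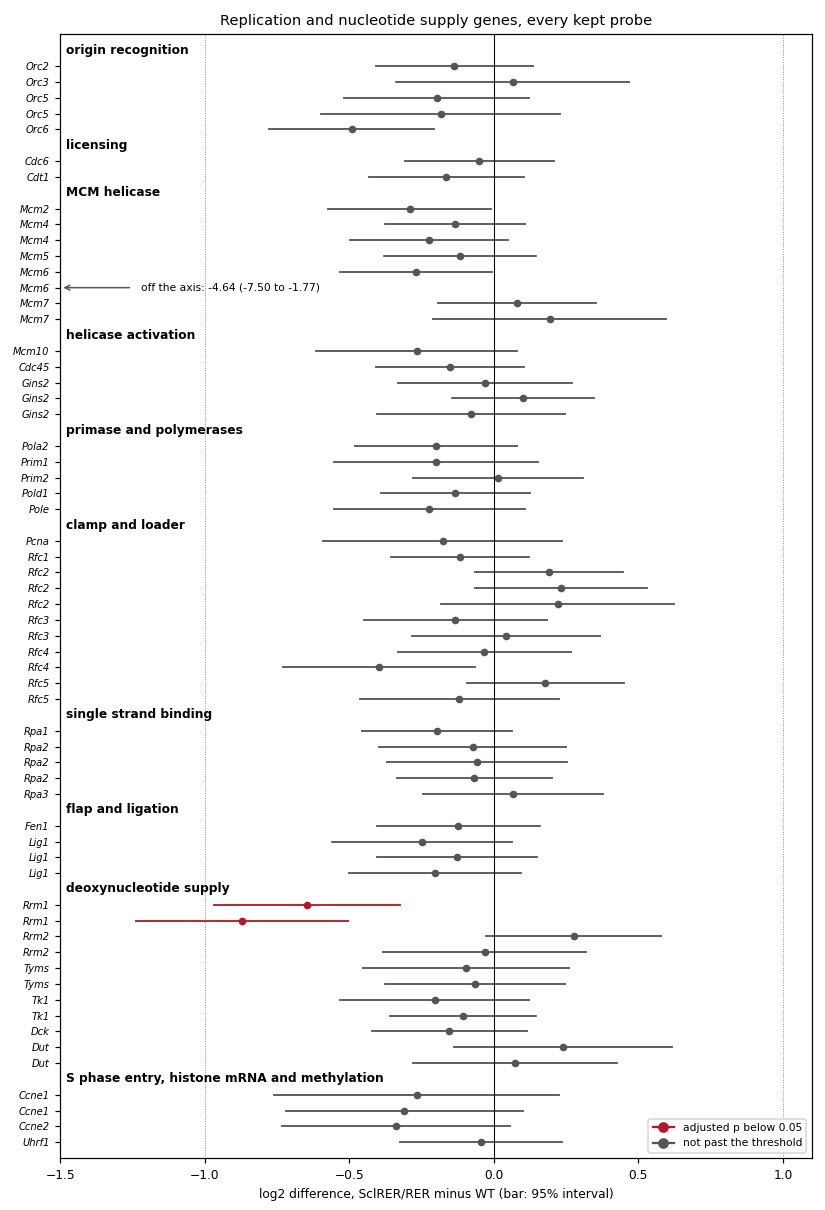
Log2 difference (SclRER/RER minus WT, x axis) with its 95% interval for each of the 60 kept probes, grouped by role. The 2 Rrm1 probes are the only ones past the threshold, and the Mcm6 probe at -4.64 lies off the axis.

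Rrm1 encodes the large subunit of ribonucleotide reductase, the enzyme that turns ribonucleotides into deoxynucleotides. Its brighter probe (ILMN_1258715) was at 11.97, 11.50 and 11.83 on SclRER/RER arrays 1 to 3, against 12.44, 12.33 and 12.47 on WT arrays 1 to 3 (log2 normalised intensity). Every SclRER/RER array lay below every WT array. The level fell by 0.65 on the log2 scale (SE 0.14, 95% interval -0.97 to -0.32, limma adjusted p = 0.0307), a level 1.56-fold lower. Before normalisation the groups overlapped, at 5399, 2454 and 3405 intensity units in SclRER/RER and 5559, 5291 and 4990 in WT, and SclRER/RER array 1 had the highest mean signal of the 6 arrays. Permuting the genotypes exactly (two-sided) gave p = 0.1 for each Rrm1 probe, which is the smallest that 3 arrays against 3 allow.

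The other Rrm1 probe (ILMN_1221606) was much dimmer, at 6.42, 5.80 and 6.03 in SclRER/RER and 6.95, 6.90 and 7.02 in WT. It fell by 0.87 (SE 0.16, adjusted p = 0.0152), again without overlap. Its signal passed detection on 1 SclRER/RER array and on 3 WT arrays, and the difference was -0.56 when values under the lowest detected signal of an array were raised to it. The dimmer probe met the filter only through the WT arrays, where it was higher, so it adds no separate support for the fall. With detection required on all 6 arrays, only the brighter Rrm1 probe was tested, and it passed (limma adjusted p = 0.027). The calls of both probes were close to the threshold. The brighter probe missed it without SclRER/RER array 2 (adjusted p = 0.0805), WT array 1 (0.0911), WT array 2 (0.102) or WT array 3 (0.121), with median scaling (0.0602) and with no detection filter (0.0908). For the dimmer probe the adjusted p was 0.0683 without WT array 2, 0.0716 without WT array 3 and 0.0684 with no detection filter. Over all alternatives tried, the difference lay between -0.75 and -0.51 for the brighter probe and between -1.04 and -0.48 for the dimmer.

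In such cell populations, fewer cells of a type and less RNA per cell cannot be told apart. The kept probes of 6 erythroid progenitor genes had a summed normalised intensity of 31500 to 32600 in SclRER/RER and 33100 to 36800 in WT. Of these probes 1 passed the test (Epor, fell by 0.54, adjusted p = 0.0199). The other Epor probe (-0.38), Tfrc (-0.48), Gata1 (-0.23) and both kept Kit probes (-0.30 and -0.42) did not pass. Klf1 and Tal1 had the opposite sign, at 0.33 (adjusted p = 0.116) and 0.08. For Klf1 every SclRER/RER array lay above every WT array. The summed intensity of 2 kept genes of maturing red cells, Slc4a1 and Alas2, was 1660 to 3200 in SclRER/RER and 4970 to 7620 in WT (Slc4a1 fell), with Epb42 detected on no array. That of 3 neutrophil genes was 2190 to 3310 in SclRER/RER and 3940 to 4280 in WT (all 4 kept probes of Mpo and Prtn3 fell), with Elane detected on no array. Camp, the other kept neutrophil gene, had the opposite sign at 0.66 (adjusted p = 0.283). For Pf4, the kept one of 4 megakaryocyte genes, it was 121 to 215 in SclRER/RER and 342 to 580 in WT, with Gp1bb detected on no array. The 2 kept of 5 mast cell genes summed to 221 to 265 in SclRER/RER and 178 to 200 in WT, with Mcpt8 and Tpsb2 detected on no array. Of these, Cpa3 rose by 1.07 (adjusted p = 0.0127) and Cma1 differed by -0.33 (adjusted p = 0.33). The Cpa3 probe was detected on 3 SclRER/RER arrays and 1 WT array, so it met the filter only through the group where it was higher. Its difference was 0.84 with low values raised to the floor of detection, and the other Cpa3 probe was detected on no array. The hepatocyte gene Apoa1 was at 473 to 864 in SclRER/RER and 961 to 1000 in WT. The part of these differences in the Rrm1 result was not tested. Of 3 proliferation genes with a probe, Top2a and Cdk1 were kept and summed to 4550 to 5490 in SclRER/RER and 5100 to 5370 in WT, with overlap, and Ccna2 was detected on no array. The brightest Top2a probe differed by -0.04 and Cdk1 by 0.02. The dimmer kept Top2a probes differed by -0.44 and -0.64 (adjusted p = 0.192 and 0.186), and the dimmest was lower on every SclRER/RER array.

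The small subunit gene Rrm2, which carries the radical-forming site of the same enzyme, did not pass. Its brighter probe was at 11.34, 11.12 and 11.11 in SclRER/RER and 11.12, 10.79 and 10.83 in WT, a difference of 0.28 (SE 0.13, 95% interval -0.03 to 0.58, adjusted p = 0.303). Only SclRER/RER array 3 lay inside the range of WT. Its other kept probe had overlapping groups and the opposite sign, at 9.05, 9.42 and 9.42 in SclRER/RER and 9.14, 9.30 and 9.54 in WT (difference -0.03, SE 0.15, adjusted p = 0.947).

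**Figure D2:**
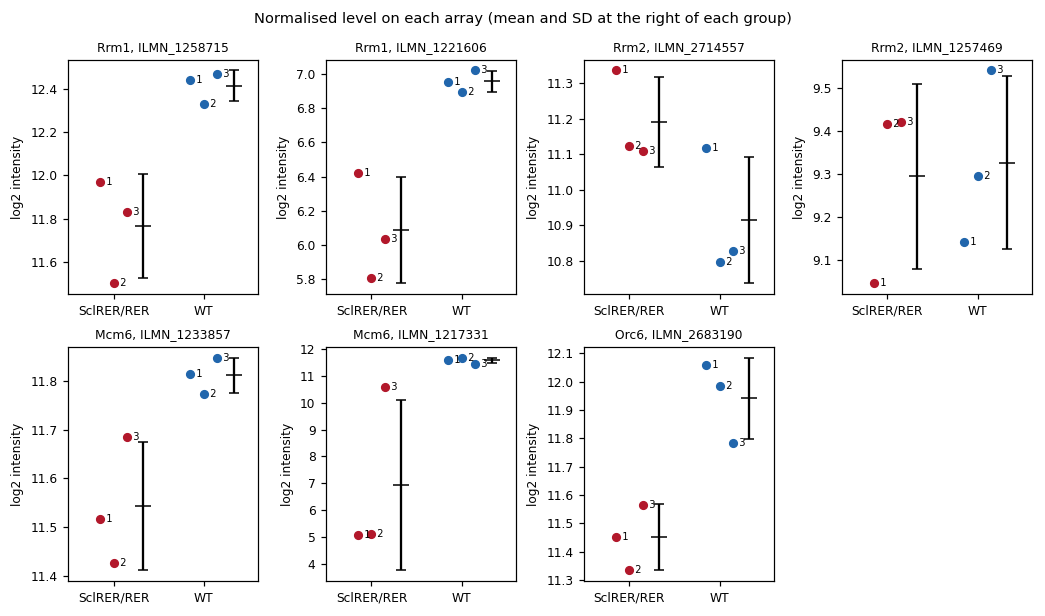
Log2 normalised intensity (y axis, scaled per panel) on each array, numbered by replicate, for the probes of Rrm1, Rrm2, Mcm6 and Orc6, with the mean and SD of each genotype. Both Rrm1 probes are lower on all SclRER/RER arrays, and 1 Mcm6 probe is near 5 on SclRER/RER arrays 1 and 2 and at 10.60 or above on the other arrays.

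The promoter windows of both subunit genes are shown because 1 gene passed the test and the other did not, and that of Mcm6 because its probes disagreed and its window holds the most E2F cores among the 43 windows found for the set. Rrm2 and Mcm6 were chosen for this after their values were seen. Each covers 300 bases, numbered -250 to 50 from the start of the gene (RefSeq, GRCm38.p6), is written 5′ to 3′ on the strand of the gene, and has in capitals every match on either strand to an E2F core (TTCCCGC or TTGGCGC or TTCGCGC or TTGCCGC), to CCAAT, and to ATGGCGGC, a word searched because it was seen to recur in the Rrm1 window. In Rrm1 a CCAAT and an ATGGCGGC abut, and in Mcm6 E2F cores overlap each other on opposite strands.
Rrm1, chr7:102441445-102441744, plus strand: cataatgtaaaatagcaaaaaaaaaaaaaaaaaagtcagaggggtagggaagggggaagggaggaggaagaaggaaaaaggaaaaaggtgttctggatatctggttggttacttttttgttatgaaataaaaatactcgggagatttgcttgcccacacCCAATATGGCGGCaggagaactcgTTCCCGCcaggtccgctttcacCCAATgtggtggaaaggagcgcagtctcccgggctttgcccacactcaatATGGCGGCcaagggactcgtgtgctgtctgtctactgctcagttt
Rrm2, chr12:24708004-24708303, plus strand: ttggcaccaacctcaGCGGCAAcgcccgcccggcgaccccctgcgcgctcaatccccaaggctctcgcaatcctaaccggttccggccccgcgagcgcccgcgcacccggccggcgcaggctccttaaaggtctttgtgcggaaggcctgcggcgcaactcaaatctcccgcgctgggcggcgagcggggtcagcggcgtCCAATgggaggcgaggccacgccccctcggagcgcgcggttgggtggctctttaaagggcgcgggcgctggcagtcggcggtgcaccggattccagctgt
Mcm6, chr1:128359656-128359955, minus strand: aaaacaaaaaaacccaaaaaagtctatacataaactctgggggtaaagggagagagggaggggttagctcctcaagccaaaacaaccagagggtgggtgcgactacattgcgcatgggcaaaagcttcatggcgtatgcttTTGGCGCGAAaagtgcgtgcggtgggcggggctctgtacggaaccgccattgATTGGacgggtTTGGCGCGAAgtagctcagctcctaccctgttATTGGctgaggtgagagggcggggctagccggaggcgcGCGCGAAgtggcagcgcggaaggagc

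The Rrm1 window holds 1 E2F core starting 67 bases before the gene's start, 2 CCAAT and 2 ATGGCGGC, while the Rrm2 window holds 1 E2F core and 1 CCAAT and the Mcm6 window 5 E2F cores and 2 CCAAT. RefSeq windows were found for 37 of the 45 genes, 43 windows in all. An E2F core occurred in 24 of the 43 windows (55.8%), against 9.57% of 32851 windows of all genes and 12.1% of the windows of protein-coding genes. CCAAT occurred in 58.1%, against 37.4% of all windows and 38.2% of protein-coding ones. ATGGCGGC occurred in 1 window, that of Rrm1 where it was first seen (2.33%), against 2.24% and 3.02%. A GATA box (AGATAA or AGATAG or TGATAA or TGATAG) occurred in 11.6%, against 29.8% of all and 26% of protein-coding windows. An E box of the form CAGNTG, of the kind SCL dimers can bind, occurred in 39.5%, against 51.4% and 48.6%. Neither a GATA box nor this E box was found in the Rrm1 or the Mcm6 window, which says only that the letters are not in these stretches. The Rrm2 window holds an E box of this form, CAGCTG, starting at position 44 and not put in capitals.

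The other enzymes of deoxynucleotide supply did not pass on any kept probe. Tyms, which makes the thymidine nucleotide from its uridine form, differed by -0.10 and -0.07 on its 2 kept probes (95% intervals -0.45 to 0.26 and -0.38 to 0.25). Tk1, the salvage kinase for thymidine, differed by -0.20 and -0.11, and Dck, the kinase for deoxycytidine, by -0.15 (SE 0.12, adjusted p = 0.556). Dut, which removes dUTP, differed by 0.24 and 0.07. In all, 2 of 11 kept probes of these 6 genes fell and 9 did not pass.

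Among origin recognition genes 0 of 5 kept probes passed, with adjusted p from 0.0547 to 0.9. Orc6, the smallest subunit of the complex, came closest. It was at 11.45, 11.33 and 11.57 in SclRER/RER and 12.06, 11.98 and 11.78 in WT, with no overlap, and differed by -0.49 (SE 0.12, 95% interval -0.78 to -0.21, adjusted p = 0.0547). It passed under 8 of 18 alternatives, the authors' normalised values (adjusted p = 0.0284) and the fit without SclRER/RER array 3 (0.0429) among them, with adjusted p between 0.0147 and 0.211. Orc5 differed by -0.20 and -0.18 on its 2 kept probes, Orc2 by -0.14 and Orc3 by 0.07, and the 1 probe of Orc1 was detected on no array.

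Of the licensing factors, Cdt1, which brings the helicase to origins, was at 11.42, 11.48 and 11.30 in SclRER/RER and 11.43, 11.61 and 11.65 in WT. The difference was -0.16 (SE 0.12, adjusted p = 0.52), with overlap. Cdc6, its partner in loading, differed by -0.05 (SE 0.11, adjusted p = 0.876). Gmnn, the inhibitor of Cdt1, was detected on 1 array of each genotype and was not tested.

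Of 8 kept probes of MCM helicase subunits 0 passed. Mcm5 had the brightest probe, at 13.35, 13.40 and 13.42 in SclRER/RER and 13.64, 13.37 and 13.50 in WT (difference -0.12, SE 0.12, adjusted p = 0.667). Its groups overlapped, while those of Mcm2 and of both Mcm4 probes did not. Mcm2 differed by -0.29 (SE 0.12, adjusted p = 0.239), Mcm4 by -0.13 and -0.22, and Mcm7 by 0.08 and 0.19.

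Mcm6 stood out for the disagreement of its probes, a feature singled out after its values were seen. On one probe (ILMN_1217331) SclRER/RER arrays 1 and 2 were at 5.08 and 5.12, below detection, and SclRER/RER array 3 was at 10.60, against 11.60, 11.66 and 11.45 in WT. The unnormalised signals were 90.1, 85.5 and 1428 intensity units in SclRER/RER and 3226, 3443 and 2456 in WT. The difference of -4.64 had an SE of 1.26 and did not pass (adjusted p = 0.069). Raising low values to the floor of detection gave -3.91 (adjusted p = 0.0505). Without SclRER/RER array 3 it was -6.47 (limma adjusted p = 6.47e-07). That fit set only the 2 undetected SclRER/RER values against WT, with the 1 detected value taken out, so it adds no support. The probe passed under 6 of 17 alternatives. It was detected on 1 SclRER/RER array and on 3 WT arrays. The filter was thus met only through the WT arrays, where the probe was higher.

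The other kept Mcm6 probe (ILMN_1233857) was at 11.52, 11.43 and 11.69 in SclRER/RER and 11.81, 11.77 and 11.85 in WT. On it the groups differed by -0.27 (SE 0.12, 95% interval -0.53 to -0.01, adjusted p = 0.243), and no array was near background. Its remaining probe was detected on no array. The 2 kept probes of this gene were therefore 4.37 apart in their differences, against at most 0.36 apart in the other 16 genes with several kept probes. In 4 of those 17 genes, Gins2, Rfc3, Rfc5 and Rrm2, probes differed in sign, and in 0 of them in the call.

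Genes that turn the helicase on also stayed short of the threshold. Gins2, a GINS subunit, had 3 kept probes. The brightest was at 10.32, 10.57 and 10.64 in SclRER/RER and 10.40, 10.56 and 10.66 in WT, the next at 10.09, 9.93 and 9.94 in SclRER/RER and 9.90, 9.86 and 9.89 in WT, and the dimmest at 8.99, 8.68 and 9.08 in SclRER/RER and 8.91, 9.15 and 8.92 in WT. Only the middle one had no overlap, with SclRER/RER higher. The differences were -0.03, 0.10 and -0.08, with 95% intervals reaching from -0.40 to 0.35 and adjusted p of 0.939, 0.693 and 0.833. Mcm10, an MCM-binding factor, differed by -0.27 (adjusted p = 0.395) and Cdc45 by -0.15 (0.54).

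Primase and polymerase genes likewise showed no difference past the threshold on 5 kept probes. Pold1, the catalytic subunit of the lagging-strand polymerase, was at 11.60, 11.36 and 11.51 in SclRER/RER and 11.57, 11.63 and 11.67 in WT (difference -0.13, SE 0.11, adjusted p = 0.606). Pole, that of the leading-strand polymerase, differed by -0.22, Pola2 and Prim1 of the primase complex each by -0.20 and Prim2 by 0.02. Pola1 was detected on no array.

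Clamp and clamp loader genes had differences of both signs, and 0 of their 11 kept probes passed. Rfc2, a loader subunit, had the brightest probe, at 12.03, 12.19 and 12.09 in SclRER/RER and 11.83, 11.90 and 12.01 in WT. Its 3 probes had the same sign, at 0.19, 0.23 and 0.22, and did not pass (adjusted p from 0.386 to 0.58). For 2 other loader subunits the probes differed in sign, and all groups overlapped. Rfc3 was at 8.79, 8.94 and 9.24 in SclRER/RER and 9.18, 9.15 and 9.05 in WT on its brighter probe (difference -0.13, adjusted p = 0.684). Its dimmer probe was at 7.22, 7.58 and 7.61 in SclRER/RER and 7.55, 7.44 and 7.29 in WT (difference 0.04, adjusted p = 0.923). SclRER/RER array 1 was the lowest of the 6 arrays on both. Rfc5 was at 10.87, 10.65 and 10.90 in SclRER/RER and 10.73, 10.58 and 10.58 in WT on its brighter probe (difference 0.18, adjusted p = 0.487), and at 7.38, 7.76 and 7.77 in SclRER/RER and 7.59, 7.74 and 7.93 in WT on the dimmer (difference -0.12, adjusted p = 0.75). The dimmer Rfc4 probe differed by -0.40 (SE 0.15, adjusted p = 0.172) and the brighter by -0.03, and Rfc1 by -0.12. Pcna, the clamp itself, was at 7.81, 7.61 and 8.15 in SclRER/RER and 7.74, 8.09 and 8.27 in WT (difference -0.18, SE 0.18, adjusted p = 0.679).

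Rpa1, the large subunit of the single-strand binding protein, was at 13.03, 12.94 and 13.15 in SclRER/RER and 13.29, 13.26 and 13.15 in WT (difference -0.20, SE 0.11, adjusted p = 0.405). Its groups met at the highest SclRER/RER and the lowest WT array. The 3 probes of Rpa2 lay close together, at -0.07, -0.06 and -0.07, and Rpa3 differed by 0.07. Fen1, the flap nuclease of Okazaki fragment processing, was at 12.71, 12.68 and 12.87 in SclRER/RER and 13.03, 12.74 and 12.86 in WT (difference -0.12, adjusted p = 0.672). Lig1, the ligase that seals the fragments, differed by -0.25, -0.13 and -0.20 on its 3 probes, none of which passed.

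Among the genes of S phase entry and chromatin, Uhrf1, which helps copy DNA methylation, was at 12.51, 12.32 and 12.55 in SclRER/RER and 12.53, 12.62 and 12.37 in WT (difference -0.04, adjusted p = 0.903). The brighter probe of Ccne1, a cyclin that drives cells into S phase, was at 9.14, 9.13 and 9.97 in SclRER/RER and 9.72, 9.71 and 9.61 in WT. SclRER/RER arrays 1 and 2 lay below all WT arrays and array 3 above them. The difference of -0.27 (SE 0.22, adjusted p = 0.582) was -0.54 without SclRER/RER array 3 (adjusted p = 0.0246). The other Ccne1 probe differed by -0.31 and Ccne2, the second E cyclin, by -0.34 (adjusted p = 0.336). Slbp, the histone mRNA binding protein, was detected on no array.

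Most differences were small and below 0. The median over the 60 probes was -0.12 and over all 11578 kept probes 0.00 (log2), and the middle 50% of the 60 ran from -0.20 to -0.03, against -0.15 to 0.15 for all. Of the 60, 46 (76.7%) were below 0, as were 49.4% of all kept probes. Every SclRER/RER array was below every WT array for 11 probes (18.3%, against 11.9% of all) and above for 3 (5.0%, against 12.6%). Probes of 1 gene are not independent, and these counts describe the set without a test. The median was -0.12 without the Rrm1 probes and lay between -0.15 and -0.10 under all 18 alternatives.

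**Figure D3:**
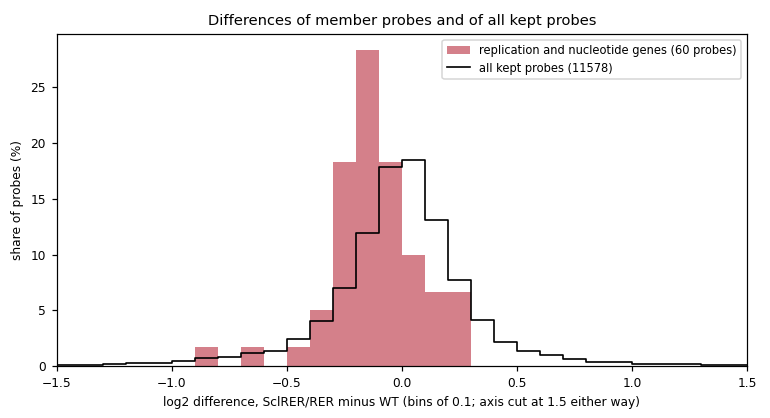
Share of probes (y axis) by log2 difference (x axis, SclRER/RER minus WT) for the 60 kept probes of the set (bars) and all 11578 kept probes (line). The bars have their median at -0.12 and the line at 0.00, and the axis ends at 1.5 either way.

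The lower level was not shared by all SclRER/RER arrays. Taking each probe's deviation from its mean over the 6 arrays, the median of the 60 probes was -0.10 and -0.12 on SclRER/RER arrays 1 and 2 but 0.06 on SclRER/RER array 3, against 0.07, 0.05 and 0.04 on WT arrays 1 to 3. The same median over all kept probes lay between -0.01 and 0.02 on every array. SclRER/RER array 3 thus lay within the range of the WT arrays for this set, while both Rrm1 probes and Orc6 were low on it too. The role groups did not share 1 order of arrays. The medians of the S phase entry genes were -0.32, -0.30 and 0.16 on SclRER/RER arrays 1 to 3. Those of origin recognition were -0.11, 0.01 and -0.13 and those of licensing 0.01, -0.03 and -0.14, both lowest on SclRER/RER array 3. The medians rest on few kept probes, 4 for S phase entry, 5 for origin recognition and 2 for licensing.

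**Figure D4:**
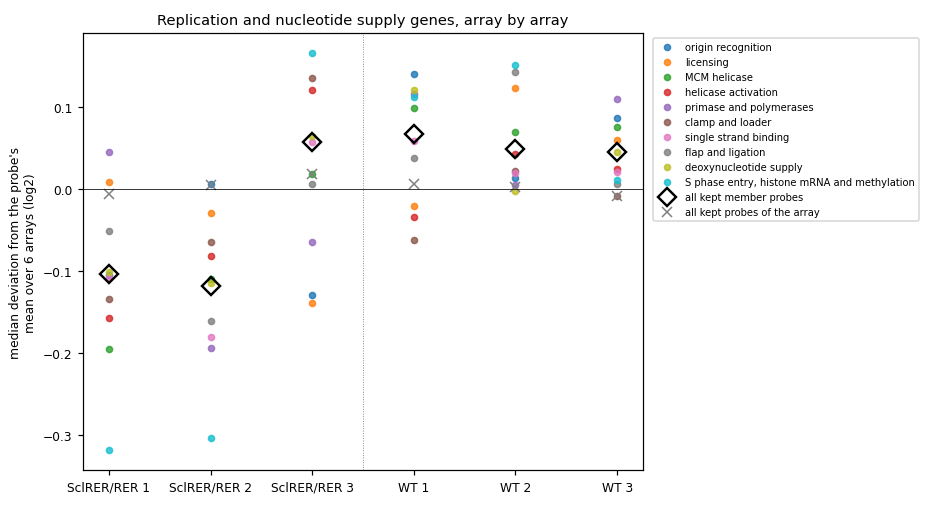
Median deviation of the kept probes of each role group from the probe mean over 6 arrays (y axis, log2) on each array (x axis), with the median of the whole set (diamonds) and of all kept probes (crosses). The set is low on SclRER/RER arrays 1 and 2 and not on SclRER/RER array 3.

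A further list of 45 replication and nucleotide genes outside the set gave the wider pathway. Of these, 41 had a probe, and 42 probes of 34 genes were kept. Of the 42 probes 2 fell (4.76%, against 3.26% of all kept probes) and 0 rose (3.33% of all) in the limma fit. At an unadjusted p below 0.05, 5 were lower (11.9%, against 9.8% of all) and 1 was higher (2.38%, against 9.79%). The median difference was -0.04, and 54.8% lay below 0, against 49.4% of all. Dguok, the mitochondrial deoxyguanosine kinase, was at 7.34, 8.0 and 7.60 in SclRER/RER and 8.34, 8.39 and 8.41 in WT on 1 probe, with no overlap. It fell by 0.73 there (SE 0.17, adjusted p = 0.0369), while its brighter kept probe differed by 0.02 (adjusted p = 0.961). Asf1a, a histone chaperone, was at 7.43, 7.40 and 7.35 in SclRER/RER and 7.91, 7.75 and 7.82 in WT, and fell by 0.44 (SE 0.11, adjusted p = 0.0493). No call was left without SclRER/RER array 1 or 3 or any 1 of the WT arrays, and without SclRER/RER array 2 only Dguok passed. Asf1a also missed the threshold with no background correction, an offset of 50, the authors' normalised table, detection scores as deposited, the trended robust variance and the replicate block, and Dguok missed it with no filter on dim probes. Ticrr, a factor of replication initiation, differed by -0.47 (adjusted p = 0.0656) and passed under 5 alternatives.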

How the data were processed

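RNA was measured on 6 Illumina bead arrays of 1 colour, 3 for each genotype. The deposited table of signals holds linear intensity values per probe, per the file headers, without background subtraction or scaling. The deposited detection columns hold a fraction that rises with signal, read as 1 minus the detection p-value. That beside WT array 3 did not follow its signals (Spearman 0.899, against 0.996 or more elsewhere), so each probe there received the mean score of its signal rank on WT arrays 1 and 2. The authors' normalised intensity table served as an alternative. The submitters' processing notes list limma, with no version.

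In R 4.3.3 with limma 3.58.1, signals were corrected with the normal-exponential model from the detection scores (offset 16), quantile normalised and put on the log2 scale. Probes detected (p below 0.01) on at least 3 arrays were kept. The model had genotype as its only term. Two-sided limma p-values received a Benjamini-Hochberg adjustment across the 11578 kept probes, and 0.05 was the threshold. The fit was tested on simulated data. Probe names came from the platform annotation, updated through gene identifiers (29976 probes with 1 symbol, 10 with several, 16646 with none).

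The members, lists and motifs were chosen with earlier results of these data known. Full values were given for members past the threshold, for members whose kept probes differ in sign or call, and for the brightest kept probe of each role group. Mcm6, Ccne1 and Pcna were added after their values were seen. Alternatives covered background, offset, scaling, filter, detection scores, test, replicate block and leaving out each array.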

Additional observations from a re-analysis of the deposited data

How the results depend on the processing

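Across 18 alternatives, 373 of 412 values of the 23 probes followed kept their direction and their side of the threshold, 15 came to pass it, 9 no longer passed and 15 changed sign with no call either way. No called value changed sign. The 9 lost calls were all of Rrm1 and the 15 gained ones of Orc6, Mcm6 and Ccne1, with values given above. The count of member probes past the threshold was 2 in the fit reported. It was 4 with no background correction, an offset of 50, the authors' normalised table, detection scores as deposited and array weights. With cyclic loess scaling and with the trended robust variance it was 3, Orc6 and both Rrm1 probes. It was 1 with median scaling or with detection required on all 6 arrays. With no filter on dim probes, where 46632 probes were tested, it was 0. On leaving out 1 array it ranged from 0 to 5. None of these calls was higher in SclRER/RER. For all kept probes the count of 762 was 1209 with array weights and 301 to 986 on leaving out 1 array, with the lowest when WT array 2 was left out, 343 when it was WT array 3 and 485 when it was SclRER/RER array 2. For the further replication genes the count of 2 was 1 with no filter, with detection scores as deposited or with the replicate block, 3 with array weights (Asf1a, Dguok and Ticrr), and 0 to 1 on leaving out 1 array. It was 2 but held Dguok and Ticrr in place of Asf1a with no background correction, an offset of 50, the authors' normalised table and the trended robust variance. The cause of these changes was not tested. With the replicate number as a block the member count was 2 and the median -0.12. Nothing says that the numbers pair samples, and deviations of same-numbered arrays correlated at 0.16, -0.03 and 0.07. The files name no slide, so no slide block was run. Levels near background touch the dimmer Rrm1 probe and 1 Mcm6 probe, whose differences were -0.56 and -3.91 once signals too low to detect were lifted to each array's lowest detected one.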

Other observations

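Other probes showed the pattern of the Mcm6 probe. Searching all 11578 kept probes for those lower by at least 2 (log2) on SclRER/RER arrays 1 and 2 than on SclRER/RER array 3 and every WT array gave 9 probes of 7 genes, while 2 probes were higher by as much on those arrays. The 7 genes were Mcm6, Enah and Uap1 on chromosome 1, Fgfr1op2 and Tm7sf3 on chromosome 6, Twistnb on chromosome 12 and Hprt on the X chromosome. For Fgfr1op2 the probe was at 6.44, 5.86 and 10.59 in SclRER/RER and 10.79, 10.93 and 10.47 in WT, whereas its other kept probe was at 9.35, 9.51 and 9.49 in SclRER/RER and 9.30, 9.46 and 9.52 in WT, a disagreement between probes like that of Mcm6. For Hprt the other kept probe was low on the same arrays, at 4.87, 4.74 and 6.84 in SclRER/RER and 6.74, 7.31 and 7.41 in WT. This search was made after the values were seen and carries no test.

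The wider surroundings of both genes that stood out held some large differences. Kept probes were taken from the 40 protein-coding genes on each side of Mcm6 on chromosome 1, in the gene order of GRCm38.p6. Of 34 such probes 7 passed (20.6%, against 6.58% of all), with 1 lower in SclRER/RER, Tmcc2 at -0.85 (log2). Those higher were Lypd1 at 4.32, Ctse at 3.01, Slc45a3 at 1.32, Nifk at 0.77, Rassf5 at 0.66 and Nuak2 at 0.58. The other kept Nifk probe, at -0.12, did not pass. Lypd1 and Ctse lie at positions -12 and 26, counted in genes from Mcm6. Around Rrm1 on chromosome 7, 3 of 28 kept probes passed (10.7%), with Inppl1 at 3.04, Rab6a at 0.62 and Mrpl48 at -0.58. Inppl1, Rab6a and Mrpl48 lie at positions -20, -35 and -36 from Rrm1. The other kept probes of Rab6a (-0.20 and 0.27) and of Mrpl48 (0.16 and 0.05) did not pass. All kept probes but those of Olfr575 and Olfr576 lie on the same side of Rrm1. Stim1, the gene next to it, did not pass on any of 3 kept probes, at -0.72 (adjusted p = 0.0641), 0.00 and 0.01. Between Rrm1 and the beta-globin gene Hbb-bt lie 77 protein-coding genes. The windows were chosen after the values were seen, and whether position has a part in the differences was not tested.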
